A study of Mus musculus with 17 samples.

Results

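The proneural and neuronal reprogramming factors examined here are *Neurog2*, *Neurod1*, *Neurod2*, *Neurod4*, *Neurod6*, *Insm1*, *Hes6*, *Sox11*, and *Rest*, taken by gene symbol. All 9 were present among the 26556 genes of the count tables. Their levels were compared in 17 RNA-seq libraries of GFP-positive cells sorted by FACS from P7 mice of the FVB strain carrying the *Gfap::GFP* transgene, in which the *Gfap* promoter drives the green fluorescent protein. The labels name no other allele and no agent, so that the values describe sorted cells to which no reprogramming factor had been given. The cortex group holds 4 libraries, and the thalamus holds 13, namely 5 from the dLG (the visual relay nucleus), 4 from the VPM (the somatosensory relay nucleus), and 4 from the MGv (the auditory relay nucleus). For every library 4 brains were pooled, so that differences between single animals are not visible.

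Proneural factors are transcription factors of the basic helix-loop-helix (bHLH) family that bind DNA at E-boxes as dimers with E proteins and switch progenitors toward a neuronal fate. *Neurog2* acts early in this cascade, and the *Neurod* genes, *Insm1*, and *Hes6* act with it or after it. *Sox11* is a high-mobility-group factor of immature neurons. *Rest* encodes the repressor that keeps neuronal genes silent in nonneuronal cells, and its removal eases the conversion of glia into neurons. Forced expression of *Neurog2* or *Neurod1* is a common way to convert cultured astrocytes into neurons, so the amount of these transcripts already present is the starting point of such experiments.

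The totals ranged from 18213687 to 50366363 counts per library, cortex replicate a being the deepest. Levels are given as CPM, counts scaled to the library size after TMM normalization, and 3 counts, the limit that a count of 0 allows, corresponded to between 0.0648 and 0.167 CPM. These limits cover counting error only. The number of genes detected ranged from 17749 in dLG replicate c to 23365. Going by the leading digits of their library numbers, 10 libraries formed a larger series (cortex c and d, dLG a and b, VPM c and d, and all MGv libraries) and 6 a smaller series (cortex a and b, dLG d and e, and VPM a and b), and dLG c stood alone. Astrocyte marker genes (8, among them *Aqp4* and *Aldh1l1*) summed to 5716 to 14905 CPM per library, and oligodendrocyte precursor genes (6, among them *Pdgfra*) to 5983 to 8572 CPM. Pan-neuronal genes (10, among them *Rbfox3* and *Snap25*) summed to 763 to 2004 CPM. The oligodendrocyte precursor sum exceeded the astrocyte sum in dLG b, VPM a (8177 against 6054 CPM), and MGv a, b, and d. In the other libraries it was lower. The sorted cells thus carried the astrocyte markers together with transcripts of other cell types. In bulk libraries, fewer cells of a type and less RNA per cell cannot be told apart.

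Of the 9 genes, 8 have at most 2 merged exons and 2, *Insm1* and *Sox11*, have a single exon (1). Among the 14311 protein coding genes tested, 7.29% have at most 2 merged exons and the median is 10. On GRCm38, *Neurog2* lies on the plus strand at chr3:127633135-127635631, *Insm1* on the plus strand at chr2:146221921-146225020, and *Rest*, with 5 merged exons, on the plus strand at chr5:77265491-77286432. The genes on the minus strand are *Neurod1* at chr2:79452521-79456751, *Neurod2* at chr11:98325415-98329648, *Neurod4* at chr10:130268152-130280240, *Neurod6* at chr6:55677822-55681263, *Hes6* at chr1:91411483-91414038, and *Sox11* at chr12:27334264-27342574. All are protein coding. The exons of *Neurod1* overlap those of *Cerkl* on the same strand and of *Gm26755* on the opposite strand over 13.0% of their length, and its counts are uncertain to that extent. The exons of the other 8 genes overlap no other annotated gene.

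*Neurod2* and *Neurod6*, both high in every cortex library and at or near 0 in the thalamus, are shown by their promoter windows, 250 bases before to 50 bases after the transcription start, since both proteins and their relatives bind E-boxes. Sequences are those of RefSeq on GRCm38.p6, both on the minus strand, chr11:98329596-98329895 for *Neurod2* and chr6:55681214-55681513 for *Neurod6*. Capitals mark every E-box, CANNTG, which reads alike on both strands.
Neurod2: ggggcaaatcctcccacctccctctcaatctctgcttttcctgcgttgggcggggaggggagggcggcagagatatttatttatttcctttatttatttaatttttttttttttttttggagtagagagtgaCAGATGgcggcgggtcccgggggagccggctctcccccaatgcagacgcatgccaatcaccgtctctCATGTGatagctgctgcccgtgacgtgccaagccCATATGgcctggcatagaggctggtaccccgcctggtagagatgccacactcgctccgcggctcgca
Neurod6: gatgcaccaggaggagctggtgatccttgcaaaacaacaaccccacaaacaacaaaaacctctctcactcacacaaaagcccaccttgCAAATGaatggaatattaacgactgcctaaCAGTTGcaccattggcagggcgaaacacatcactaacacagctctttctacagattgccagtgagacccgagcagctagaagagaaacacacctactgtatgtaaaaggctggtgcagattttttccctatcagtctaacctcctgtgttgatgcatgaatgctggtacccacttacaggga

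The *Neurod2* window holds 3 E-boxes, 1 of which is CAGATG, and the *Neurod6* window holds 2. RefSeq windows were found for 7 of the 9 genes, 9 windows in all, and 7 of the 9 hold at least 1 E-box. Over all 32851 windows of the same length, 72.3% hold CANNTG, 17.2% CAGATG, and 16.3% CAGCTG, the last 2 being forms of the first. The *Neurog2* window holds none. The letters CAGCACC and GGACAGC, which stand for the 2 ends of the element bound by REST, were found in none of the 9 windows on either strand, against 7.14% and 6.56% of all windows. A match is a description of the letters and not a binding site.

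**Figure D1:**
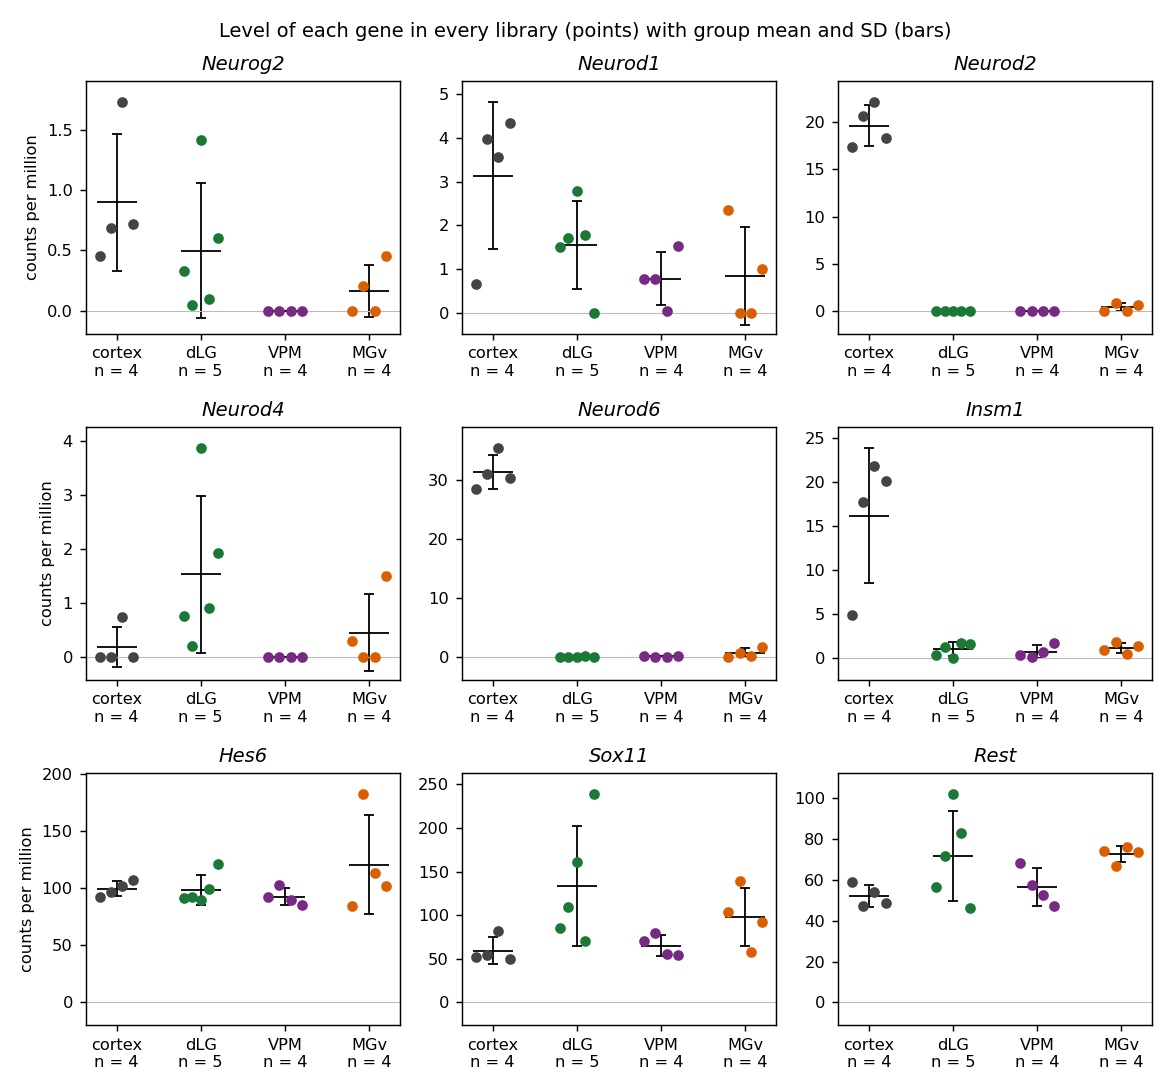
Level of each of the 9 genes in every library, in CPM on linear axes with their own scale per gene. Points are libraries (4 cortex, 5 dLG, 4 VPM, 4 MGv), and bars give the group mean and SD. *Neurod2* and *Neurod6* lie near 20 and 30 CPM in all 4 cortex libraries and at or close to 0 elsewhere, while *Hes6*, *Sox11*, and *Rest* are present in all 17.

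Between genes, levels were compared as CPM per kb of exons. In the cortex, *Hes6* was the highest of the 9 at 55.1 ± 3.64 (SD, n = 4), followed by *Neurod6* at 14.6 ± 1.37. *Rest* at 7.22 ± 0.754, *Sox11* at 7.16 ± 1.84, *Neurod2* at 6.25 ± 0.692, and *Insm1* at 5.22 ± 2.48 lay within their spread of each other. *Neurod1* at 1.15 ± 0.614, *Neurog2* at 0.404 ± 0.255, and *Neurod4* at 0.0555 ± 0.111 were lowest. Among the 17849 tested genes with a length, the cortical level of *Hes6* exceeded 94.4%, that of *Neurod6* 77.3%, that of *Neurod2* 60.7%, and that of *Neurog2* 18.1%. In the dLG the order changed to *Hes6* at 54.6 ± 7.18, *Sox11* at 16.1 ± 8.25, and *Rest* at 9.95 ± 3.05 (n = 5), and the other 6 genes were all below 1 CPM per kb. The genes present in all libraries were thus the cofactor *Hes6*, *Sox11*, and the repressor *Rest*, and the bHLH factors of the *Neurog* and *Neurod* groups that are used to drive reprogramming were low or not detectable in the thalamus.

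**Figure D2:**
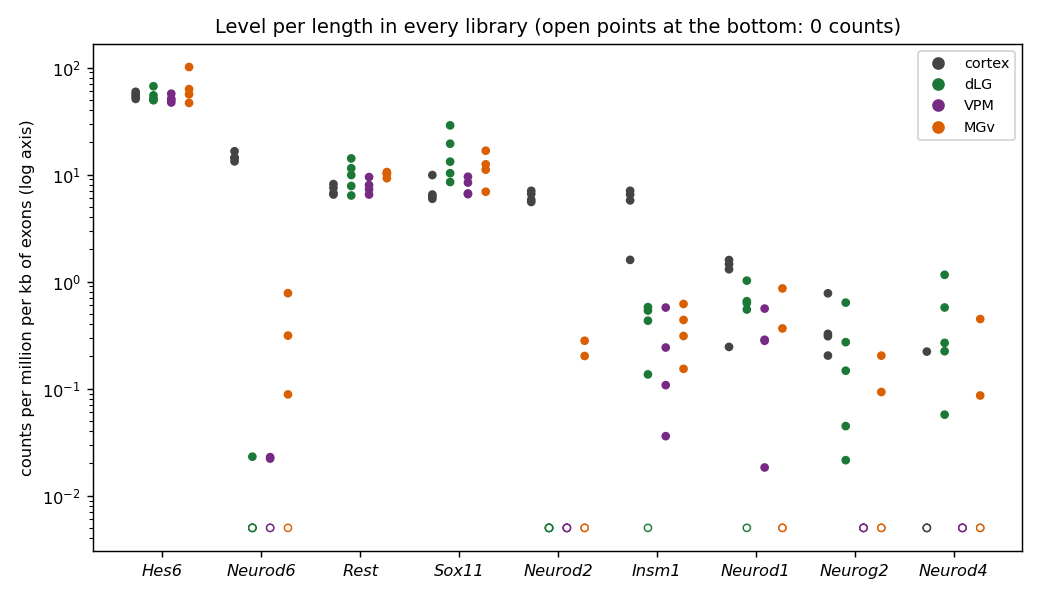
Level of each gene in CPM per kb of exons, on a log axis, in every library, colored by group, with genes ordered by their cortical mean. Open points at the bottom are libraries with 0 counts. *Hes6* lies near 50 in most libraries of each group, and the open points belong to *Neurod2*, *Neurod6*, *Insm1*, *Neurod1*, *Neurog2*, and *Neurod4*.

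To ask which of the genes differed between thalamic and cortical libraries and between the nuclei, all genes were fitted together with edgeR's quasi-likelihood test. Genes were called at a Benjamini-Hochberg adjusted p under 0.1. In the thalamus against the cortex, all 9 genes were tested, 3 were higher in the cortex (*Neurod2*, *Neurod6*, and *Insm1*) and 0 were higher in the thalamus. Of all 17856 genes tested, 5.93% were called higher in the cortex and 5.45% higher in the thalamus. The median log2 fold change (FC) of the 9 was −1.50, against 0.02 over all genes tested. Against the cortex, the dLG had 3 of the 9 genes lower and 1 (*Sox11*) higher, where 9.04% and 10.3% of all genes were called in these directions. The VPM had 4 lower (the same 3 and *Neurog2*) and 0 higher, where 5.44% and 3.56% were called. The MGv had 3 lower, the same as for the thalamus as a whole, and 0 higher, where 7.51% and 7.87% were called. These comparisons share the cortex libraries.

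Between nuclei, 6 of the 9 genes passed the filter on low counts, and *Neurog2*, *Neurod2*, and *Neurod6* did not. In the dLG against the VPM, 2 were higher in the dLG (*Neurod4* and *Sox11*) and 0 in the VPM, against 6.48% and 3.16% of 17319 genes tested. In the VPM against the MGv, 0 were higher in the VPM and 1 (*Neurod4*) in the MGv, against 4.53% and 6.89%. In the dLG against the MGv, edgeR called 0, 0 had an unadjusted p under 0.05, and DESeq2 called 0. Of all genes, 0.37% were called higher in the dLG and 0.277% in the MGv.

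**Figure D3:**
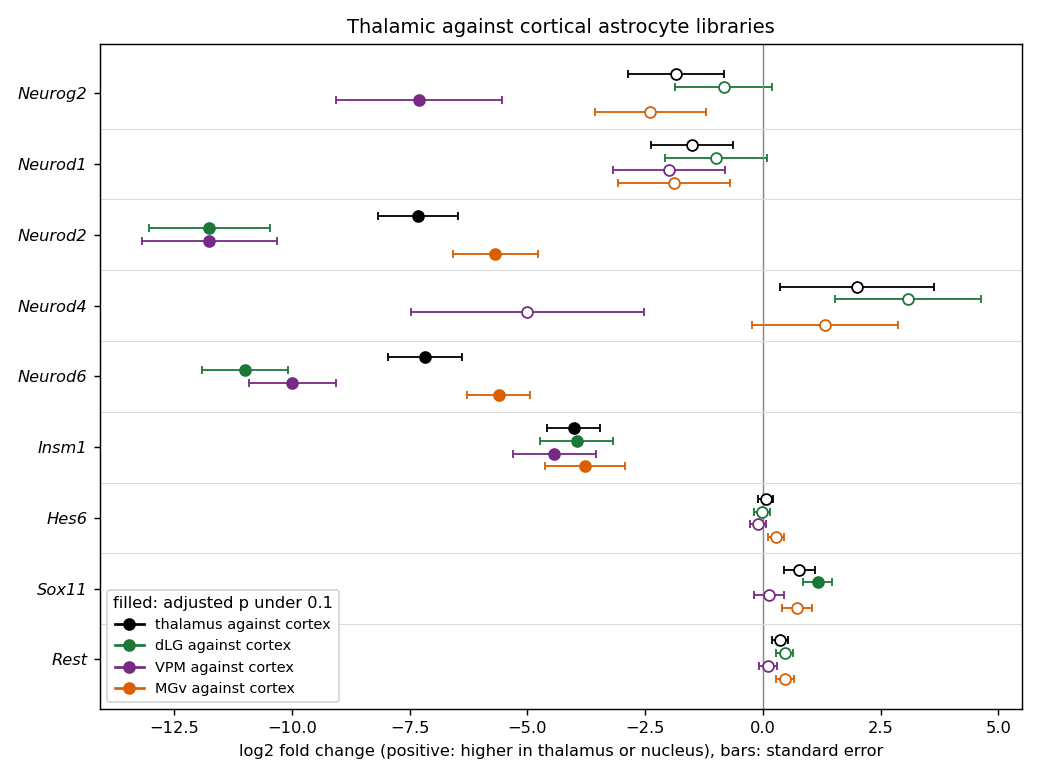
Log2FC of the 9 genes in the thalamus and in each nucleus against the cortex (x axis, positive values higher in the thalamus or nucleus), with standard errors from edgeR. Filled points have an adjusted p under 0.1. *Neurod2*, *Neurod6*, and *Insm1* are filled and left of 0 in all 4 comparisons, and the intervals of *Hes6* lie close to 0. Points far left with 1 group at 0 counts depend on the prior count.

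*Neurod2* and *Neurod6* are factors of postmitotic excitatory neurons of the cortex and hippocampus, where they promote dendrite and axon differentiation. *Neurod2* had 807, 421, 448, and 379 counts in cortex replicates a to d, which is 17.4, 20.7, 22.2, and 18.3 CPM. It had 0 counts in all 5 dLG and all 4 VPM libraries, and in the MGv it had 17 counts in replicate b, 14 in replicate d, and 0 in a and c. *Neurod6* had 1322, 633, 718, and 630 counts in the cortex, which is 28.5, 31.1, 35.5, and 30.4 CPM. In the thalamus it had 13, 4, and 37 counts in MGv b, c, and d, 1 count in each of dLG d, VPM a, and VPM d, and 0 in the other 7 libraries. No thalamic library reached the lowest cortex library for either gene.

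The mean cortical level of *Neurod2* was 19.6 ± 2.18 CPM (n = 4), at least 130-fold higher than in the dLG and at least 117-fold higher than in the VPM, both set against 3 counts in the shallowest library of the nucleus. That of *Neurod6* was 31.4 ± 2.95 CPM, at least 207.5-fold and at least 188-fold higher. In the MGv, where counts were present, the means were 0.379 ± 0.448 CPM for *Neurod2* and 0.635 ± 0.750 CPM for *Neurod6*, which is 51.9-fold and 49.5-fold below the cortex. The difference between the regions passed the test for *Neurod2* (log2FC −7.33 ± 0.85 SE, adjusted p = 6.65e-06) and for *Neurod6* (−7.18 ± 0.79, adjusted p = 3.60e-06). Within the larger series the log2FC was −6.69 for *Neurod2* (adjusted p = 0.00386) and −6.62 for *Neurod6* (adjusted p = 0.00331), and within the smaller series it was −11.85 (adjusted p = 0.0029) and −9.92 (adjusted p = 0.000526).

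The 2 genes kept a narrow proportion in the cortex, where the counts of *Neurod6* were between 1.504 and 1.66 times those of *Neurod2*. In MGv b the proportion was 0.765 and in MGv d 2.64, from 13 to 37 counts. Across the 17 libraries, *Neurod6* was the gene whose log2 CPM was most like that of *Neurod2* (Pearson's r = 0.99, Spearman's rho = 0.88). The next for both genes were *Mpped1* (r = 0.98 with each) and *Emid1* (r = 0.96 with each). In each of these pairs the points share their libraries and depth, and the 4 cortex libraries lie apart from the other 13.

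Markers of cortical excitatory neurons moved in part in the same direction as the pair. Of the 6 genes on that list, 3 were higher in the cortex, *Fezf2* and *Tbr1* among them, and 0 in the thalamus. The median log2FC was −2.66. *Bcl11b* and *Cux2* had the higher mean in the thalamus (15.2 against 12.1 and 26.5 against 19.9 CPM), without a call. Their sum was 85.0 to 146 CPM in the cortex, 43.1 to 60.4 in the MGv, 39.1 to 68.3 in the dLG, and 48.3 to 103 in the VPM, so that cortex and VPM overlapped. *Fezf2*, a determinant of deep-layer cortical neurons, had a cortical mean of 19.1 ± 9.67 CPM and at most 2 counts in any thalamic library. *Slc17a7*, a vesicular glutamate transporter of cortical excitatory neurons, averaged 37.1 ± 11.9 CPM (n = 4) against a thalamic 13.1 ± 13.6 CPM (n = 13), with no call by edgeR (adjusted p = 0.171). The sum of the pan-neuronal genes overlapped, with 1145 to 1372 CPM in cortex libraries against 763 to 2004 CPM in thalamic ones. Of its 10 genes, 2 were called for the thalamus and 1 for the cortex. The astrocyte sum was 12253 to 13126 CPM in the cortex, 14905 CPM in MGv c, and below the cortical range in the other 12 thalamic libraries. Among its 8 genes, 3 were called for the cortex and 0 for the thalamus. *Slc1a3* differed most (thalamic mean 1586 against 5227 CPM), beside *Aldoc* (838 against 1721) and *Slc1a2* (386 against 864). Without a call, thalamic means were higher for *Aqp4* (1930 against 1558), *Aldh1l1* (604 against 564), and *Gfap* (782 ± 1507 against 494 ± 45.0). Those of *Gja1* and *Sox9* were lower. *Gfap* had a thalamic maximum of 5519 CPM and a VPM mean of 12.3 ± 4.76 CPM, so that its thalamic mean does not describe every nucleus. By nucleus, 5 of the 8 were called lower than in the cortex in the VPM, 4 in the MGv, and 3 in the dLG, and 0 higher. Of all genes, 5.44%, 7.51%, and 9.04% were called lower. The lower sum was thus not seen in the pooled means of *Aqp4* and *Aldh1l1*. The part of other cell types in the levels of *Neurod2* and *Neurod6* was not tested.

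*Insm1* encodes a zinc-finger factor that drives progenitors toward delamination and neuronal differentiation. It had 229, 362, 442, and 418 counts in cortex a to d, or 4.94, 17.8, 21.9, and 20.2 CPM. The dLG libraries a to e had 0.421, 1.34, 0, 1.79, and 1.66 CPM, the VPM libraries 0.334, 0.112, 0.750, and 1.77 CPM, and the MGv libraries 0.962, 1.92, 0.475, and 1.36 CPM. Every cortex library exceeded every thalamic library, and cortex a, the deepest, was well below the other 3. The cortical mean of 16.2 ± 7.68 CPM was 16.3-fold above the thalamic mean of 0.992 ± 0.686 CPM (n = 13).

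The region difference of *Insm1* passed the test (log2FC −4.02 ± 0.56, adjusted p = 6.50e-05), as did those of the dLG (−3.95, adjusted p = 0.00227), the VPM (−4.43, adjusted p = 0.00292), and the MGv (−3.78, adjusted p = 0.00702). Within the larger series the region difference was −4.21 (adjusted p = 0.00011), and within the smaller series, which holds cortex a, it was −3.51 and not called (adjusted p = 0.155). Between nuclei, *Insm1* was not called in any pair. Of 6 inhibitory neuron markers, *Dlx1*, *Dlx2*, and *Dlx5* were higher in the cortex, 0 were higher in the thalamus, and the median log2FC was −2.20. *Gad1* had the higher mean in the thalamus (25.4 ± 5.72 against 17.9 ± 3.63 CPM), without a call. Thalamic means of *Gad2* and *Slc32a1* were lower (3.11 against 5.04 and 0.666 against 0.745 CPM), while those of the dLG were higher (6.83 and 1.42 CPM). By nucleus, 1 of the 6 was called higher and 2 lower in the dLG, and 0 higher and 4 lower in both VPM and MGv. Of all genes, 10.3% and 9.04% were called in these directions in the dLG, 3.56% and 5.44% in the VPM, and 7.87% and 7.51% in the MGv. The sum of the 6 was 34.4 CPM in cortex a and 65.8 to 86.2 CPM in the other cortex libraries, against 20.2 to 48.8 CPM in the thalamus. Cortex a was thus lowest for *Insm1* and for this sum, as it was for the cortical excitatory sum, while the other 3 cortex libraries had a different order in each. *Dlx2*, a determinant of interneurons, was at 4.71 to 32.7 CPM in the cortex and at most 1.15 CPM in the thalamus. Of the 5 immature neuron genes, *Cd24a* and *Igfbpl1* were higher in the cortex and 0 in the thalamus. *Cd24a* was at 76.9 to 118 CPM in the cortex and 6.94 to 40.4 CPM in the thalamus. *Igfbpl1* overlapped, with 0.561 to 18.3 CPM in the cortex (mean 5.89 ± 8.30) and 0.0906 to 1.76 CPM in the thalamus. *Nrep*, *Tubb2b*, and *Dcx* had log2FC of 0.69, 0.38, and 0.30 without a call, the median of the list was 0.30, and its sum was 671 to 826 CPM in cortical against 717 to 1317 CPM in thalamic libraries. The part of these cells in the level of *Insm1* was not tested. The genes most like *Insm1* across libraries were *Mlip* (r = 0.91), *Sema4f* (r = 0.89), and *Plp2* (r = 0.89).

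*Neurog2*, the factor that the study introduced into astrocytes elsewhere, was close to the detection limit. It had 21, 14, 35, and 15 counts in cortex a to d, or 0.453, 0.688, 1.73, and 0.724 CPM. The dLG libraries a to e had 7, 1, 30, 2, and 12 counts, the MGv libraries 0, 4, 0, and 10, and the 4 VPM libraries 0. All 4 cortex libraries and 5 of 13 thalamic libraries thus held more than 3 counts. The range of the cortex overlapped with that of the dLG, through dLG c at 1.42 CPM and dLG e at 0.605 CPM, and lay above all MGv and VPM libraries. The cortical mean was 0.899 ± 0.568 CPM, the dLG mean 0.499 ± 0.558 (n = 5), and the MGv mean 0.165 ± 0.215.

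Cortical *Neurog2* was at least 5.38-fold higher than in the VPM (adjusted p = 0.0174), and the dLG mean was at least 2.99-fold higher than in the VPM, a pair that was tested only without the filter, where it was called (log2FC 6.36, adjusted p = 0.0922). Within the larger and the smaller series the difference between VPM and cortex was not called (adjusted p = 0.145 and 0.354). In the dLG and the MGv it was not called (log2FC −0.83 ± 1.03, adjusted p = 0.65, and −2.39 ± 1.18, adjusted p = 0.224). In the thalamus as a whole *Neurog2* had a log2FC of −1.85 ± 1.01 (adjusted p = 0.313). Without dLG c, this value was −2.57 and was called (adjusted p = 0.0832), as it was with the series added as a covariate (−2.57, adjusted p = 0.0987) and as the mean of the 3 nuclei in a fit of 4 groups (−3.51, adjusted p = 0.0212).

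*Neurod1*, a neuronal differentiation factor that also converts glia when forced, was present at low level in both regions. In the cortex it was at 0.669, 3.98, 3.56, and 4.34 CPM in replicates a to d, with 32, 36, 59, 36, and 0 counts in dLG a to e, 16, 14, 1, and 31 counts in VPM a to d, and 49, 0, 0, and 22 counts in MGv a to d. The thalamic values lay between 0 and 2.79 CPM, the latter in dLG c. Cortex b, c, and d exceeded all thalamic libraries, and cortex a lay among them. The log2FC between regions was −1.50 ± 0.87 and was not called (adjusted p = 0.343), nor was it in any nucleus against the cortex or between nuclei. The highest likeness was to *Rpgr* (r = 0.81), *Gpr21* (r = 0.81), and *Gm26592* (r = 0.79), each over 17 libraries in which 3 held 0 counts of *Neurod1*.

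*Neurod4*, a bHLH factor that acts downstream of *Neurog2*, was highest in the dLG. It had 16, 4, 82, 18, and 38 counts in dLG a to e, or 0.748, 0.191, 3.87, 0.895, and 1.92 CPM. It had 6 and 33 counts in MGv a and d and 0 in b and c, 15 counts in cortex c and 0 in the other cortex libraries, and 0 in all 4 VPM libraries. All dLG libraries exceeded all VPM libraries, and dLG and cortex overlapped. The dLG mean of 1.52 ± 1.45 CPM was at least 9.12-fold above the VPM (adjusted p = 0.0485), and *Neurod4* was also called higher in the MGv than in the VPM (0.446 ± 0.712 CPM, at least 2.67-fold, adjusted p = 0.0936). The call between dLG and VPM was lost without VPM a, c, or d (adjusted p = 0.13, 0.128, and 0.118), with the series as a covariate (adjusted p = 0.103), and within the larger and the smaller series (adjusted p = 0.383 and 0.97). In the smaller series, 0 of all 16389 genes tested were called between dLG and VPM. The call between VPM and MGv was lost without any of MGv a, MGv d, VPM a to d, dLG a, or dLG b (adjusted p = 0.103 to 0.26) and within the larger series (adjusted p = 0.225). Against the cortex the dLG was not called (log2FC 3.07 ± 1.55, adjusted p = 0.213). Cortex c is the only cortex library with any count, and without it the value was 8.10 and was called (adjusted p = 0.0346), and so was that of the MGv (6.34, adjusted p = 0.093).

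*Sox11*, which keeps neuronal genes open in young neurons and is raised by proneural factors, was detected in every library. In the cortex it was at 52.3, 54.1, 82.2, and 49.4 CPM in replicates a to d, in dLG a to e at 85.6, 109.7, 161, 70.8, and 239.6 CPM, in VPM a to d at 70.0, 79.3, 55.4, and 54.5 CPM, and in MGv a to d at 104, 139, 57.5, and 92.3 CPM. In the dLG 4 of 5 libraries exceeded every cortex and VPM library, while dLG d lay within the ranges of both. The dLG mean of 133 ± 68.6 CPM was 2.24-fold above the cortical mean of 59.5 ± 15.3 CPM (log2FC 1.17 ± 0.31, adjusted p = 0.0168) and 2.06-fold above the VPM mean of 64.8 ± 12 CPM (1.08 ± 0.33, adjusted p = 0.0729). The MGv mean was 98.1 ± 33.6 CPM and was not called against the cortex (0.72 ± 0.32, adjusted p = 0.161), but was without cortex c, MGv c, or dLG e (adjusted p = 0.0713 to 0.0906). The region difference was 0.77 ± 0.33 (adjusted p = 0.181).

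Within the larger series the log2FC of *Sox11* in the dLG against the cortex was 0.59 (adjusted p = 0.456), and within the smaller series it was 1.59 (adjusted p = 0.284), with 2 libraries a group in each. The call against the VPM was lost without MGv d, VPM a, c, or d, or dLG b, c, or e (adjusted p = 0.102 to 0.2), and within the larger and the smaller series (adjusted p = 0.267 and 0.992). Within the larger series, 73 of 18168 genes tested were called higher in the dLG and 23 higher in the VPM. Within the smaller series 0 of 16389 were called, so that the loss there is not particular to *Sox11*. The dLG libraries with the most *Sox11*, e and c, also held the largest sums of granule-type neuron genes (*Zic1*, *Zic2*, and *Cbln1*), 91.9 and 105 CPM, against 38.6 to 67.6 CPM in the other dLG libraries, 18.7 to 29.2 in the VPM, 7.26 to 18.03 in the MGv, and 2.46 to 4.84 in the cortex. *Zic1* alone averaged 63.4 ± 25.0 CPM in the dLG, against 3.00 ± 0.436 for *Zic2* and 4.43 ± 2.75 for *Cbln1*, so that the sum was mostly that of 1 gene. The paper measured *Zic1* by qPCR among the region-specific genes of cultured astrocytes, so that its level alone does not mark granule-type neurons. *Gabra6*, also on the list, was not in the count tables. The MGv, with more *Sox11* than the VPM on average, had the lower sums, and MGv b had 139 CPM of *Sox11* beside a sum of 7.92 CPM. Of *Zic1*, *Zic2*, and *Cbln1*, 2 were higher in the dLG than in the cortex. Of all genes, 10.3% were called higher in the dLG and 9.04% higher in the cortex. The sum of the 5 immature neuron genes was 991 to 1317 CPM in the dLG and 671 to 826 CPM in the cortex, with 2 higher in the dLG and 2 in the cortex. Their part in the level of *Sox11* was not tested. Most like *Sox11* over the 17 libraries were *Acin1* (r = 0.96), *Zfp462* (r = 0.96), and *Msl1* (r = 0.95).

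*Hes6*, a Hes family member that counters Hes1 and favors neurogenesis, was the most abundant of the genes per length in every group. Its group means were 99.6 ± 6.59 CPM in the cortex, 98.7 ± 13.0 in the dLG (n = 5), 121 ± 43.1 in the MGv, and 92.6 ± 7.58 in the VPM. Single libraries ranged from 84.5 CPM in MGv a to 183 CPM in MGv b, with the next highest at 121 CPM in dLG e. The region difference was a log2FC of 0.06 ± 0.16 (adjusted p = 0.887), and none of the 6 other comparisons was called. The sign of the region difference and of that in the dLG changed between alternatives, as given in the closing section. *Ctdnep1* (r = 0.85), *Scrn2* (r = 0.82), and *Chrd* (r = 0.81) were most like it, the first with a Spearman's rho of 0.46.

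*Rest* was detected in every library, at 58.9, 47.0, 54.3, and 48.5 CPM in cortex a to d, at 56.5, 71.6, 102, 82.8, and 46.0 CPM in dLG a to e, at 68.5, 57.6, 52.6, and 47.0 CPM in VPM a to d, and at 74.2, 66.8, 76.2, and 73.5 CPM in MGv a to d. All MGv libraries exceeded all cortex libraries, while dLG and VPM overlapped with the cortex. The MGv mean of 72.7 ± 4.09 CPM was 1.39-fold above the cortical 52.2 ± 5.44 CPM, which did not pass the test (log2FC 0.48 ± 0.19, adjusted p = 0.122), nor did the dLG mean of 71.8 ± 22.1 CPM (0.46 ± 0.18, adjusted p = 0.104). DESeq2 called both (adjusted p = 0.0607 and 0.0529). edgeR also called the MGv without VPM a, VPM d, dLG c, or dLG e (adjusted p = 0.0417 to 0.0997) and the dLG without dLG a or e, VPM a, c, or d, or MGv a, b, or c (adjusted p = 0.0192 to 0.0952). Within the larger series, *Rest* was called higher in the MGv than in the cortex (log2FC 0.52, adjusted p = 0.0962) and lower in the VPM than in the MGv (−0.58, adjusted p = 0.0733), the latter not called over all libraries (−0.40, adjusted p = 0.25). The VPM mean was 56.4 ± 9.12 CPM, and the region difference was 0.37 ± 0.17 (adjusted p = 0.224). *Alkbh3os1* (r = 0.86), *Siah2* (r = 0.85), and *Spsb4* (r = 0.84) were most like *Rest*.

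The genes around these factors were then counted in the thalamus against the cortex. Of all genes, 5.45% were called higher and 5.93% lower in the thalamus. By nucleus against the cortex, the shares called higher and lower were 10.3% and 9.04% in the dLG, 7.87% and 7.51% in the MGv, and 3.56% and 5.44% in the VPM. In the dLG against the VPM they were 6.48% and 3.16%. REST works through corepressor complexes that remove active histone marks. Of 16 corepressor genes, such as *Rcor1* and *Kdm1a*, edgeR called 0 in either direction, with a median log2FC of 0.09. By nucleus, 4 were higher and 1 lower in the dLG than in the cortex, 3 higher and 1 lower in the MGv, and 0 called in the VPM, while 5 were higher and 2 lower in the dLG than in the VPM. *Ehmt2*, a histone methyltransferase, was called higher in the dLG (log2FC 0.76, adjusted p = 0.00999) and in the MGv (0.92, adjusted p = 0.00445). In the thalamus as a whole, 3 had an unadjusted p under 0.05, *Ehmt2* and *Ctdsp1* among them. Of 24 REST target genes tested, 4 rose toward the thalamus and 3 toward the cortex. *Vgf*, which encodes a secreted neuropeptide precursor, averaged 119 ± 67.3 CPM in the thalamus against 3.47 ± 1.11 CPM (log2FC 5.12, adjusted p = 1.20e-05), and *Scg2*, a secretogranin, 170 ± 127 against 18.02 ± 5.34 CPM (3.23, adjusted p = 0.000899). In the opposite direction, *Scg3* averaged 398 ± 60.5 CPM in the thalamus against 645 ± 55.9 CPM (−0.70, adjusted p = 0.000559), and *Gria2*, an AMPA receptor subunit, 430.1 ± 80.7 against 707 ± 92.4 CPM (−0.72, adjusted p = 0.00342). The targets thus moved both ways, with a median log2FC of 0.24. By nucleus, 8 targets were higher and 3 lower than in the cortex in the dLG, 6 and 3 in the MGv, and 2 and 2 in the VPM.

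Proneural factors need E protein partners and are held back by Id and Hes proteins. Of the 3 E protein genes, *Tcf12* was higher in the thalamus, with 251 ± 26.4 against 139 ± 11.1 CPM (log2FC 0.86, adjusted p = 1.41e-05), and *Tcf4* higher in the cortex, with 806 ± 87.6 against 632 ± 89.2 CPM (−0.35, adjusted p = 0.0796). Of 13 Id, Hes, and related repressor genes, 0 were called for the thalamus and 2 for the cortex, *Hey1* with 251 ± 30.9 against 156 ± 31.96 CPM (−0.69, adjusted p = 0.00387) and *Heyl* with 34.7 ± 5.07 against 12.3 ± 7.95 CPM (−1.50, adjusted p = 0.0227). Both are effectors of Notch signaling. By nucleus, 0 were higher and 5 lower in the VPM than in the cortex, with a median of −0.61, against 1 and 3 in the dLG and 1 and 1 in the MGv. The shares of all genes called higher and lower than in the cortex were 3.56% and 5.44% in the VPM, 10.3% and 9.04% in the dLG, and 7.87% and 7.51% in the MGv. Of 12 tested between nuclei, 6 were lower in the VPM than in the MGv and 5 lower than in the dLG, *Id4* and *Hes5* in both. Of all genes, 6.89% and 6.48% were called lower in the VPM in these 2 pairs.

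Of 14 other bHLH genes of the proneural and related groups, 9 were in the tables and 8 were tested, with 3 called for the thalamus and 1 for the cortex. *Nhlh2*, a neuronal bHLH gene, was at 5.29 ± 3.55 CPM in the thalamus and had 0 counts in every cortex library, at least a 35.7-fold difference. *Olig3*, which marks the progenitor zone of the thalamus, was at 2.51 ± 2.46 CPM and had at most 3 counts in the cortex, at least a 16.9-fold difference. Its mean was 4.66 CPM in the dLG, 2.11 in the MGv, and 0.212 ± 0.234 in the VPM. The VPM mean is close to the level of 3 counts, so that the bound does not hold for this nucleus. *Bhlhe22* was higher in the cortex, with 30.9 ± 9.81 against 17.97 ± 4.54 CPM (log2FC −0.78, adjusted p = 0.0226).

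Of 22 tested genes that follow proneural factors in neurogenesis, 3 were called in each direction. By nucleus 6 were higher and 4 lower in the dLG, 5 and 4 in the MGv, and 4 and 3 in the VPM. Of all genes, 10.3% and 9.04% were called in these directions in the dLG, 7.87% and 7.51% in the MGv, and 3.56% and 5.44% in the VPM. *Zbtb18*, a repressor needed for cortical neuron differentiation, averaged 118 ± 22.8 CPM in cortical against 34.8 ± 7.05 CPM in thalamic libraries (log2FC −1.77, adjusted p = 1.65e-07). *Tbr1*, a factor of early cortical excitatory neurons, averaged 16.03 ± 3.92 and 1.13 ± 0.858 CPM (−3.81, adjusted p = 2.66e-06), and *Mfng*, a modifier of Notch receptors, at 9.82 ± 1.72 and 3.43 ± 1.66 CPM (−1.51, adjusted p = 0.0265). *Ebf1* was higher in the thalamus, at 7.96 ± 8.38 against 0.575 ± 0.406 CPM (3.81, adjusted p = 0.00912), with means of 14.9 CPM in the dLG, 5.20 in the MGv, and 2.11 in the VPM.

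Of 14 tested genes of other factors used in or acting on reprogramming, 1 was called for the thalamus and 4 for the cortex. By nucleus, 4 were higher and 4 lower in the dLG, 4 and 3 in the MGv, and 1 and 6 in the VPM. *Lhx2*, a patterning factor of the cortex, averaged 231 ± 11.8 CPM in cortical against 7.74 ± 5.51 CPM in thalamic libraries (log2FC −4.90, adjusted p = 2.54e-08), and *Dlx2* 21.5 ± 12.1 against 0.203 ± 0.319 CPM (−6.69, adjusted p = 3.82e-06). The share of all genes called was 5.45% higher and 5.93% lower in the thalamus as a whole. By nucleus it was 10.3% and 9.04% in the dLG, 7.87% and 7.51% in the MGv, and 3.56% and 5.44% in the VPM. Cycling cell markers were higher in the thalamus in 4 of 5 genes and 0 were higher in the cortex. Their sums were 344 to 428 CPM in cortical against 369 to 645 CPM in thalamic libraries. By nucleus, 5 were higher than in the cortex in the VPM, 3 in the dLG, and 0 in the MGv.

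**Figure D4:**
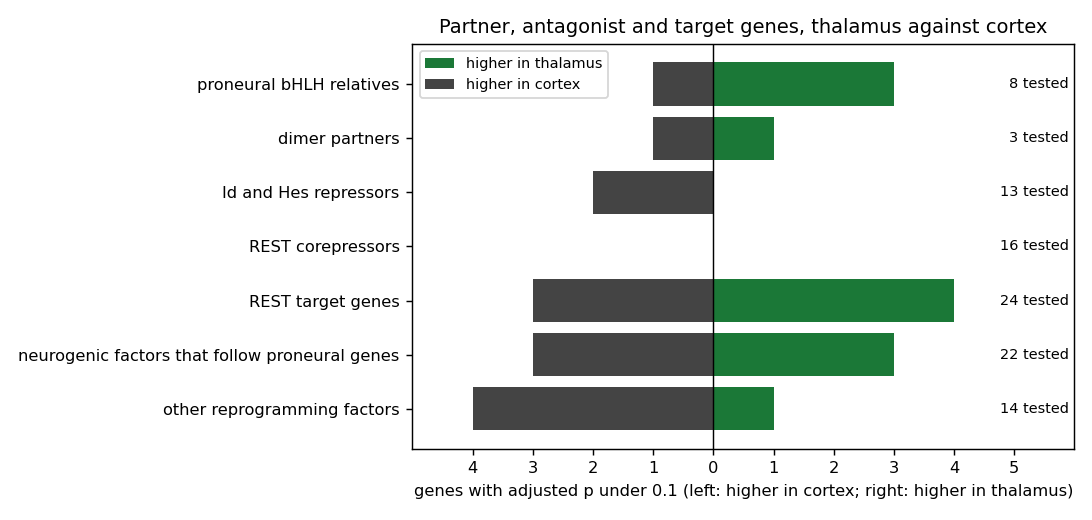
Number of genes with an adjusted p under 0.1 in the thalamus against the cortex, for 7 lists of genes that partner with, oppose, or follow the 9 factors. Bars to the right count genes higher in the thalamus and bars to the left genes higher in the cortex, with the number tested at the right edge. No corepressor gene passes in this pooled comparison, and 4 of the 14 other reprogramming factors are higher in the cortex.

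**Figure D5:**
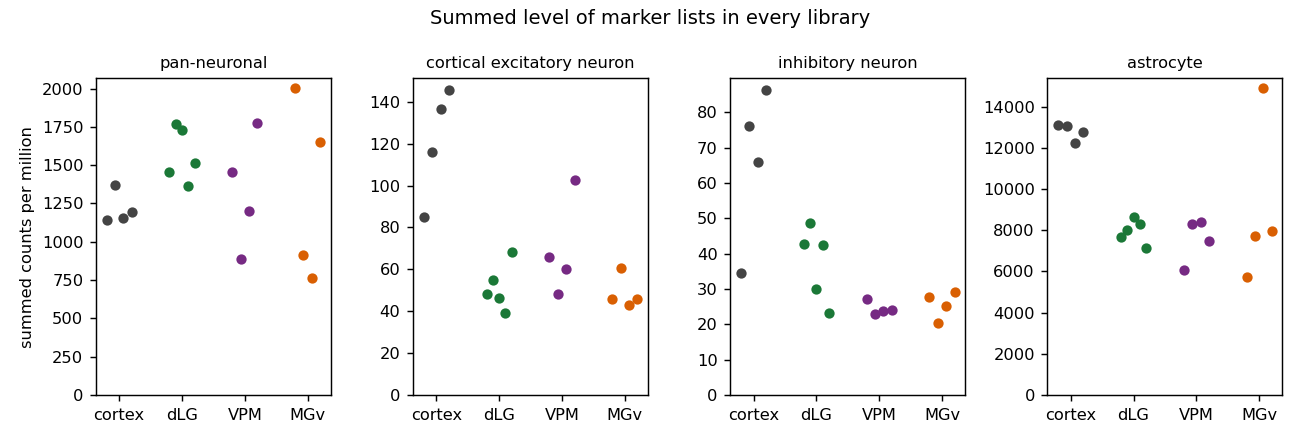
Summed CPM of 4 marker lists in every library, on linear axes from 0, by group. The cortical excitatory sum is 85.0 to 146 CPM in the cortex and reaches 103 CPM in VPM d, the inhibitory sum is lowest in cortex a among the cortex libraries, and the pan-neuronal sums of the groups overlap.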

How the data were processed

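The authors sorted GFP-positive cells, prepared the libraries with the SMARTer Ultra Low v4 kit, and deposited raw counts per Ensembl gene for each library, without normalization. Per the labels and the study's methods, single-end reads were checked with FastQC 0.11.7, mapped to GRCm38 (mm10) with STAR 2.7.0d, handled with SAMtools 1.9, and counted with featureCounts (Subread 1.6.4). The strand setting is not given in the sources used here. Groups were taken from the tissue labels. Nothing in the labels ties libraries of different groups to the same brains, and whether libraries of a group came from separate litters is not stated, so that p-values measure the spread between these pooled samples.

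Symbols and exons came from GENCODE M21 on GRCm38, with a symbol for 26548 of 26556 identifiers. Genes were filtered with filterByExpr and tested with edgeR 4.0.16 (robust quasi-likelihood, TMM, R 4.3.3) in 3 fits, of 13 thalamic against 4 cortical libraries, of the 4 groups, and of the 3 nuclei. The threshold was an adjusted p under 0.1, as in the study. Standard errors were derived from the log2FC and its F statistic. Folds against groups with at most 3 counts in any library are lower bounds against 3 counts in the shallowest library; fitted log2FC of such genes depend on the prior count. Likeness is Pearson's r of log2 CPM (prior count 2), for genes with a mean of at least 1 CPM, with the 3 most alike genes named. From each list of related genes, up to 4 called genes of lowest p were named; marker genes and the genes of a list's unadjusted count were named beside the results they touch. Some genes that this rule selects are not reported here.

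The 9 genes and the lists were chosen with earlier results of these data known. The alternatives were DESeq2 1.42.0, its size factors in edgeR, no filter, a mean of at least 10 counts per library, a fit of 4 groups for the regions, the series as a covariate, blocking by replicate letter, a threshold of 0.05, each library left out, and, chosen after seeing the data, MGv b and d left out and the larger or the smaller series alone. The tests were tested on simulated data. Proteins were not used here. Figures were drawn with Python 3.11.15 and matplotlib 3.10.9.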

Additional observations from a re-analysis of the deposited data

Results flagged for a closer look

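*Neurod4* in cortex replicate c was at 0.742 CPM, while the other 3 cortex libraries had 0 counts, and *Neurod6* in dLG replicate d was at 0.0497 CPM, which is 1 count, while the other 4 dLG libraries had 0. *Sox11* in cortex replicate c was at 82.2 CPM, against 49.4 to 54.1 CPM in the other cortex libraries. In these 3 of 32 groups of a gene's libraries, the gap from 1 library to the rest exceeded Dixon's 95% limit. Chance does so in about 1 of 20 groups of normally distributed values. For *Neurod4* and *Neurod6* the other libraries of the group were all at 0. Any count in a single library then exceeds the limit, so that this rate does not apply to them.

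Levels were called different between nuclei with edgeR for *Neurod4* in the dLG against the VPM (log2FC 7.98, adjusted p = 0.0485) and in the VPM against the MGv (−6.22, adjusted p = 0.0936). Both pairs had 0 counts in all VPM libraries. *Sox11* was called in the dLG against the VPM (1.08, adjusted p = 0.0729). These are the pairwise tests given above, and each call was lost under several alternatives.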

How the results depend on the processing

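*Neurod2* and *Neurod6* stayed below the cortex with an adjusted p under the threshold in the thalamus and in each nucleus under all alternatives that could be fitted (26 to 28 a comparison), with log2FC from −12.44 to −5.17. *Insm1* did so under all of them in the VPM and the MGv and under all but the smaller series alone in the thalamus (−3.51, adjusted p = 0.155) and the dLG (−2.68, adjusted p = 0.199). The number of the 9 genes called was within 1.5 times the reported number in 157 recomputed counts, above it in 4, and below it in 26. In the dLG against the cortex it was 2 in the smaller series alone, in place of 4. In the MGv against the cortex it was 5 with DESeq2, 5 with the replicate block, and 3 to 5 with a library left out, in place of 3. *Rest* and *Sox11* were the additional calls with DESeq2, with the block, and without dLG e, and *Sox11* and *Neurod4* without cortex c. In the dLG against the VPM it was 1 at an adjusted p under 0.05, 1 with the replicate block, and 0 with the series as a covariate, in place of 2. For that pair it was also 0 to 2 with a library left out, 0 in the larger series, and 0 in the smaller series, where 0 of all 16389 genes tested were called. In the VPM against the MGv it was 0 with no filter, an adjusted p under 0.05, the replicate block, the series covariate, or MGv b and d left out, and 0 to 1 with a library left out, in place of 1, and in the larger series it stayed at 1 with *Rest* in place of *Neurod4*. The cause of these changes was not tested.

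The differences that changed sign were not called as reported, but that of *Neurod4* in the MGv was called at 6.34, without cortex c. For *Hes6* in the dLG against the cortex (−0.01), the value was 0.0155 with DESeq2, 0.0154 with its size factors, 0.0155 without a filter, 0.0184 with a mean of 10 counts, 0.0145 with the series covariate, 0.0084 without MGv b and d, 0.26 in the smaller series, and −0.0683 to 0.0672 with a library left out. *Hes6* in the thalamus was −0.0259 without MGv b and d and −0.0197 to 0.13 with a library left out, and in the VPM 0.0474 in the smaller series. *Neurod4* in the thalamus was −0.20 as the mean of 3 nuclei and −0.0833 in the larger series, and in the MGv −0.28 without b and d and −0.82 to 6.34 with a library left out. In the VPM against the cortex, *Sox11* was −0.28 and *Rest* −0.0646 in the larger series, and *Rest* −0.0033 to 0.18 with a library left out. *Insm1* in the dLG against the VPM was −0.13 with the replicate block and −0.48 in the larger series; against the MGv it was 0.57 with the series covariate, 0.52 without MGv b and d, and −0.45 to 0.16 with a library left out. *Sox11* in the dLG against the MGv was −0.0047 in the larger series, and *Rest* 0.0848 with the replicate block and −0.18 to 0.10 with a library left out. In the VPM against the MGv, *Neurod1* was 0.48 with the replicate block, 0.10 with the series covariate, and −0.67 to 1.18 with a library left out, and *Insm1* was 0.0654 in the larger series.

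Replicate letters are shared between groups. Libraries of the same letter had a median r of their deviations from group means of 0.0067, over 0.1 in 4 of 24 pairs. For other letters it was −0.01, with 14 of 84 pairs over 0.1. The same-letter pairs over 0.1 were cortex d with dLG d (0.20), cortex d with MGv d (0.22), dLG d with MGv d (0.20), and MGv b with VPM b (0.22). A median over so few libraries cannot tell whether libraries of a letter share brains. *Neurod4* and *Neurog2* rest on at most 82 counts in any library. Over all genes, the calls for thalamus and cortex were 974 and 1059 as reported, 1617 and 1179 with DESeq2, 612 for the thalamus at an adjusted p under 0.05, 348 and 586 in the larger series, 124 and 236 in the smaller, 1273 and 1514 for the mean of 3 nuclei, and from 523 (without cortex b) to 1196 and from 616 (without cortex d) to 1224 with a library left out. *Neurod4* in the VPM against the cortex could not be fitted without cortex c or in the smaller series, where all libraries are at 0, and the smaller series holds no MGv.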
